A study of Mus musculus with 9 samples.

Results

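The 10 eicosanoid pathway genes Hpgd, Hpgds, Ptgs1, Ptgs2, Alox5, Alox5ap, Ltc4s, Lta4h, Ptger2 and Ptger4 were followed across 9 libraries of mouse bone marrow cells. They are 10 of the 21159 genes counted, taken from a fixed list of prostaglandin and leukotriene enzymes and receptors and found by their Ensembl identifiers. Hpgd was chosen by its CPM in Runx2ko against Runx2wt in an earlier look at the same counts, and the other 9 by their place in its pathway. Those values enter every comparison, so Hpgd is described and not tested, and tests are given for the other 9. All 10 passed the filter on low counts, which left 11196 genes for testing. Hpgd passed it through the libraries where it is high.

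The study asked how expression changes when marrow progenitors are transformed by a leukaemia fusion protein and when the transcription factor gene Runx2 is then deleted. Every library came from lineage-depleted (Lin-) marrow of mice with floxed Runx2 (Runx2fl/fl) and CreERT2, a Cre recombinase that works once tamoxifen binds it, and the growth protocol describes transduction with a KMT2A-MLLT1-eGFP retrovirus and a first culture with IL-3, IL-6 and stem cell factor. There are 3 groups of 3 libraries. The BM progenitor group was sampled before the first replating in methylcellulose. The Runx2wt group is transformed cells grown in suspension after the second replating and given ethanol. The Runx2ko group is such cells kept for 24 hours in 4-hydroxytamoxifen (4-OHT) at 400 nM. All groups therefore carry the floxed alleles and CreERT2. The fusion status of BM progenitor cells, the promoter that drives CreERT2, the floxed exon and the age of the animals were not given in the sources used here. One extraction note in the labels mentions T-ALL cells, unlike the sample labels. Fusion, passage and culture form change together between BM progenitor and Runx2wt, and 4-OHT, Cre activity and loss of Runx2 change together between Runx2wt and Runx2ko, so within each comparison these cannot be told apart. The labels call the libraries independent biological replicates.

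Eicosanoids are signalling lipids made from arachidonic acid, which phospholipases free from membranes. Cyclooxygenases (Ptgs1, Ptgs2) turn it into prostaglandin H2, which synthases such as Hpgds convert to prostaglandins. Those act on G protein-coupled receptors such as Ptger2 and Ptger4 and are inactivated by Hpgd. On the other branch, Alox5 with its membrane partner Alox5ap makes leukotriene A4, which Lta4h turns into leukotriene B4, a neutrophil attractant, and Ltc4s into leukotriene C4, known from mast cells, basophils and eosinophils. In blood formation, prostaglandin E2 is known as a signal to stem and progenitor cells.

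Counts came from QuantSeq, which reads 1 tag near the 3′ end of each transcript, and levels are given as CPM, the counts scaled to a common library total adjusted by TMM, a normalisation that evens out differences in RNA composition. A 3′ tag count does not grow with transcript length. Library totals ran from 3118594 to 5348177 counts, so that 1 count is worth 0.182 to 0.323 CPM, and a count of 0 allows a level of up to 3 counts, 0.547 to 0.970 CPM. Runx2ko replicate 1 stood apart: across genes its log2 CPM correlated at 0.793 to 0.816 with the other transformed libraries, which correlated at 0.934 to 0.959 among themselves. It also carried the most mast cell and basophil RNA, with 16 markers summing to 6440 CPM, against 126 to 596 CPM in the other transformed libraries and 1300 to 1480 CPM in BM progenitor. Calls for the 10 genes that turned on it are given with and without it, and those for other genes of the pathway are named together. In these bulk libraries fewer cells of a type and less RNA per cell cannot be told apart.

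The targeted gene, Runx2 (ENSMUSG00000039153), stood at 53.3, 46.7 and 58.8 CPM in the BM progenitor libraries, 159.4, 178.8 and 131.0 CPM under Runx2wt and 21.0, 120.1 and 134.7 CPM under Runx2ko. Tags of the 3′ end may lie outside the deleted part, so this does not check the deletion, and the groups below are the libraries as labelled.

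The start-site regions of Hpgd, Alox5 and Ptgs2 are shown here. RefSeq (GRCm38.p6) lists a 300-base window, from 250 bases before to 50 bases after the start, for 9 of the 10 genes, without Alox5ap. Hpgd (chr8:56294302-56294601, plus strand) and Alox5 (chr6:116461129-116461428, minus strand) are the 2 members whose Runx2ko and Runx2wt libraries did not overlap, and Ptgs2 (chr1:150099781-150100080, plus strand) is shown as one that holds a RUNX core motif. Each is printed 5′ to 3′, with TATAAA or the RUNX core TGTGGT (on the other strand ACCACA) in capitals.
Hpgd: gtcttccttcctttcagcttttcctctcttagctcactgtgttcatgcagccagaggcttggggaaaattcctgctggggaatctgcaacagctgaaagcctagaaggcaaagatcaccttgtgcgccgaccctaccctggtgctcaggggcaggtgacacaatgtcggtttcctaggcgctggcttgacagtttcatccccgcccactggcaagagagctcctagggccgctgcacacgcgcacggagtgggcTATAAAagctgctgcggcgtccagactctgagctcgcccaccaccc
Alox5: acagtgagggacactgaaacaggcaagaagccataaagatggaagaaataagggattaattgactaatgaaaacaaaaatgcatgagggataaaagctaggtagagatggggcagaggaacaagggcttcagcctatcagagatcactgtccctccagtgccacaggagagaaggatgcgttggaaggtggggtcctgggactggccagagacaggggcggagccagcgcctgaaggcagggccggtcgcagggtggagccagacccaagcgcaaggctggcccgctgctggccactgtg
Ptgs2: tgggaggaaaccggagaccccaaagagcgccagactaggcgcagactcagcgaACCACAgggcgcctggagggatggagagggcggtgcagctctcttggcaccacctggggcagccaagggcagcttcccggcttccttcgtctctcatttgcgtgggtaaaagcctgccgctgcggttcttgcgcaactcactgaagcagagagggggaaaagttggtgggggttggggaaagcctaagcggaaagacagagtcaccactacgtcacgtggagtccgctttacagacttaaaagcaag
The Hpgd window was the only one of the 9 with TATAAA, at bases 255 to 260 of the window. That is just after the RefSeq start and 29 bases before the start of the gene in the GENCODE annotation, 56294585. On either strand 13.6% of 32851 RefSeq promoters hold it. TGTGGT on either strand was in 3 of the 9 windows, those of Hpgds, Ptgs2 and Ltc4s, and in 16.8% of all promoters. The windows of Hpgd and Alox5 hold neither TGTGGT nor ACCACA. A letter match is no evidence of binding, and these libraries did not measure binding.

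Hpgd (ENSMUSG00000031613, GRCm38 chromosome 8, 56294585 to 56321043, plus strand) encodes 15-hydroxyprostaglandin dehydrogenase, the enzyme that starts the breakdown of prostaglandin E2. It was nearly absent from BM progenitor, at 0.182, 0.270 and 0.637 CPM, which is 1, 1 and 3 counts. The Runx2wt libraries held 93.7, 125.0 and 175.3 CPM, from 498, 451 and 630 counts. The Runx2ko libraries held 0.647, 13.7 and 12.7 CPM, from 2, 72 and 47 counts. The 3 groups did not overlap: every Runx2wt library lay above every Runx2ko library, and every Runx2ko library above every BM progenitor library. Replicate 1 is the low one of Runx2ko, and its exact 95% counting interval of 0.0783 to 2.34 CPM covers the 3 BM progenitor values. The intervals of Runx2ko replicates 2 and 3, 10.7 to 17.3 and 9.36 to 16.9 CPM, lie above all 3 BM progenitor intervals, whose highest bound was 1.86 CPM. Such intervals hold counting error only.

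Between Runx2wt (131 ± 41.2 CPM, SD, n = 3) and BM progenitor (0.363 ± 0.241 CPM), the fitted log2 fold change of Hpgd was 8.40 (SE 0.95), given as a description. Pooled counts, 1579 against 5, gave a ratio of 351 with an exact 95% counting interval of 150 to 1.08e+03. Over all genes tested in this comparison, 13.5% passed, 8.28% as higher and 5.23% as lower. Here and below a gene passed at an adjusted p under 0.05 by edgeR's quasi-likelihood test, with Benjamini-Hochberg adjustment over the 11196 genes. Of the 9 members tested 0 passed, by edgeR and by DESeq2, and 1 had an unadjusted p under 0.05.

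Against Runx2wt, Hpgd in Runx2ko (9.03 ± 7.27 CPM) had a fitted log2 fold change of -3.82 (SE 0.68), given as a description since this contrast chose the gene. The pooled counts put Runx2wt at 12.5 times Runx2ko (exact counting interval 10.4 to 15.2). Without Runx2ko replicate 1 the ratio was 9.48 (7.87 to 11.5) and the fitted log2 fold change -3.31. Replicate 1 alone, on 2 counts, lay 195 times below Runx2wt with an interval of 53.9 to 1.61e+03. The lower Hpgd signal was thus seen in the 2 Runx2ko libraries that resembled Runx2wt as well as in the one that stood apart.

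Against BM progenitor, Hpgd in Runx2ko had a fitted log2 fold change of 4.58 (SE 0.98), again a description. Without Runx2ko replicate 1 it was 5.09 (SE 0.47), and replicates 2 and 3 pooled held 37 times the BM progenitor level (exact counting interval 15.4 to 116). The BM progenitor level rests on 5 counts, and with BM progenitor replicate 1, 2 or 3 left out the value was 4.21, 4.44 or 5.21. In this comparison 17.2% of all genes passed, 10% as higher and 7.14% as lower, and 0 of the 9 members tested, by edgeR and by DESeq2, with 1 at an unadjusted p under 0.05. The 3 comparisons share libraries, so their values for one gene are not independent of each other.

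**Figure D1:**
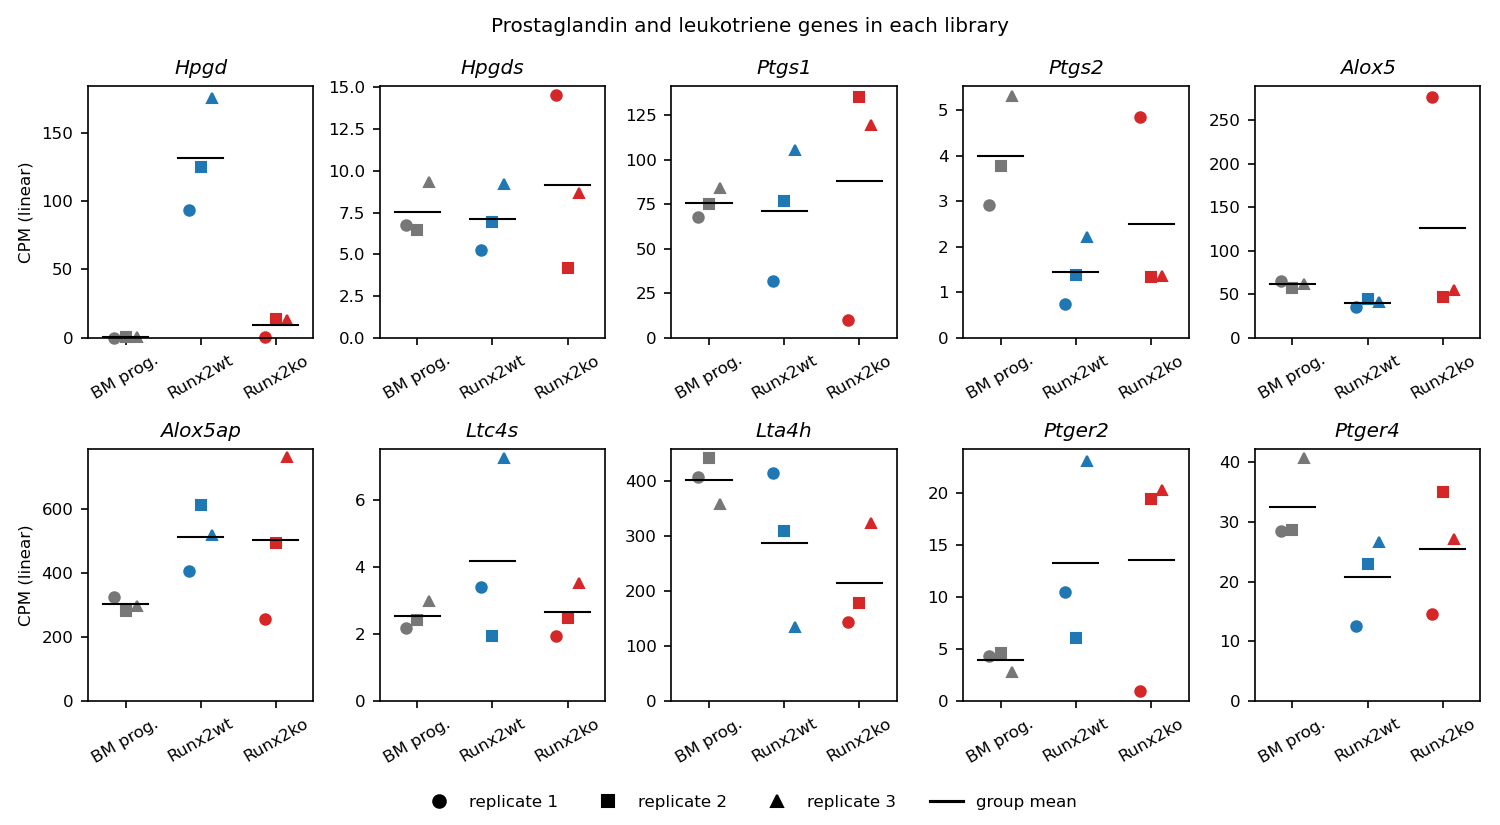
CPM on a linear axis for the 10 genes in each of the 9 libraries (circles, squares and triangles are replicates 1, 2 and 3, and bars are group means, n = 3). Hpgd fills the Runx2wt column at 93.7 to 175.3 CPM and stays at or below 13.7 CPM elsewhere. Runx2ko replicate 1 is the high point for Alox5 and Hpgds and the low point for Ptgs1, Alox5ap and Ptger2.

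The cyclooxygenases differed in level, with the CPM of Ptgs1 above that of Ptgs2 in every library. Ptgs1, the constitutive cyclooxygenase of platelets and many myeloid cells, had 68.1, 75.0 and 84.3 CPM in the BM progenitor libraries, 32.0, 76.8 and 105.4 CPM under Runx2wt and 10.0, 135.1 and 119.5 CPM under Runx2ko. All groups overlapped, and Runx2ko replicate 1 was the lowest library of the 9 while replicates 2 and 3 were the highest. None of its 3 comparisons passed: the log2 fold changes were -0.09 (SE 0.72; adjusted p = 0.948) for Runx2wt against BM progenitor, 0.32 (SE 0.72; adjusted p = 0.93) for Runx2ko against Runx2wt and 0.23 (SE 0.72; adjusted p = 0.857) for Runx2ko against BM progenitor. With Runx2ko replicate 1 left out the last 2 were 0.84 and 0.75, and neither passed.

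Ptgs2, the inducible cyclooxygenase, was low everywhere, at 2.92, 3.78 and 5.31 CPM in BM progenitor, 0.753, 1.39 and 2.23 CPM in Runx2wt and 4.85, 1.33 and 1.36 CPM in Runx2ko. Every Runx2wt library lay below every BM progenitor library, at a log2 fold change of -1.47 (SE 0.67; adjusted p = 0.166). Runx2ko replicates 2 and 3 were like Runx2wt in value and replicate 1 like BM progenitor, with 0.77 (SE 0.69; adjusted p = 0.808) against Runx2wt and -0.71 (SE 0.65; adjusted p = 0.48) against BM progenitor.

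Hpgds, which makes prostaglandin D2 and is known from mast cells, stayed between 4.19 and 14.6 CPM in all 9 libraries, with both ends in Runx2ko. BM progenitor had 6.75, 6.47 and 9.35 CPM, Runx2wt 5.27, 6.93 and 9.18 CPM, and Runx2ko 14.6, 4.19 and 8.67 CPM. All 3 groups overlapped and no comparison passed, at log2 fold changes of -0.09, 0.35 and 0.26 and adjusted p = 0.921, 0.873 and 0.733 in the order given for Ptgs1. The highest value, 14.6 CPM, was in Runx2ko replicate 1.

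Among the members, the receptors for prostaglandin E2 went opposite ways in value between BM progenitor and Runx2wt. So did those outside the members, named after their values were seen. Ptger1 was higher in Runx2wt (1.11, SE 0.49; adjusted p = 0.153) and Ptger3 lower (-2.47, SE 1.61; adjusted p = 0.318), and neither passed. Ptger2, which raises cyclic AMP through Gs, had 4.38, 4.59 and 2.76 CPM in the BM progenitor libraries, 10.5, 6.10 and 23.1 CPM under Runx2wt and 0.970, 19.4 and 20.3 CPM under Runx2ko. All Runx2wt libraries lay above all BM progenitor libraries, whereas Runx2ko held 2 high libraries and, in replicate 1, the lowest of all. With 9 libraries no comparison of Ptger2 passed, at 1.75 (SE 0.85; adjusted p = 0.189) for Runx2wt and 1.81 (SE 0.85; adjusted p = 0.17) for Runx2ko against BM progenitor, and 0.05 (SE 0.80; adjusted p = 0.987) between them. Both differences from BM progenitor passed once that library was left out, at 1.75 (SE 0.46; adjusted p = 0.0166) and 2.34 (SE 0.49; adjusted p = 0.00551).

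Ptger4, the other Gs-coupled receptor, stood at 28.5, 28.6 and 40.8 CPM in BM progenitor, 12.6, 23.0 and 26.7 CPM in Runx2wt and 14.6, 35.0 and 27.1 CPM in Runx2ko. The Runx2wt libraries lay below all of BM progenitor, by a margin that did not pass, with a log2 fold change of -0.66 (SE 0.37; adjusted p = 0.248). Runx2ko overlapped both other groups, with 0.31 (SE 0.37; adjusted p = 0.856) against Runx2wt and -0.34 (SE 0.37; adjusted p = 0.549) against BM progenitor. Ptger4 exceeded Ptger2 in every library but 0 of the 3 comparisons between groups passed for it, also without Runx2ko replicate 1.

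On the leukotriene side, Alox5 (ENSMUSG00000025701, GRCm38 chromosome 6, 116410077 to 116461178, minus strand), the 5-lipoxygenase, had 65.1, 57.2 and 62.2 CPM in the BM progenitor libraries, 35.9, 44.3 and 40.6 CPM under Runx2wt and 277.5, 46.4 and 54.7 CPM under Runx2ko. The Runx2wt libraries lay below all of BM progenitor. The Runx2ko libraries all lay above Runx2wt, replicates 2 and 3 just above it and replicate 1 far above. Between Runx2ko and Runx2wt the log2 fold change was 1.64 (SE 0.59; adjusted p = 0.579), and without replicate 1 it was 0.33 with adjusted p = 0.708. Over all genes tested the Runx2ko and Runx2wt libraries did not overlap for 9.68%, 4.95% as higher and 4.73% as lower. Among the 9 members other than Hpgd, that was the case for Alox5 only.

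Between Runx2wt and BM progenitor, Alox5 had a log2 fold change of -0.61 (SE 0.58; adjusted p = 0.501) with 9 libraries. The value without Runx2ko replicate 1 was -0.62 (SE 0.17; adjusted p = 0.0178), so that leaving out that library changed the call and hardly the size. Runx2ko stood at 1.03 (SE 0.58; adjusted p = 0.245) against BM progenitor, and at -0.29 once replicate 1 was left out.

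Alox5ap, the protein that presents arachidonate to 5-lipoxygenase, was the most highly counted member in Runx2wt and Runx2ko by group mean. It stood at 326.3, 282.7 and 298.8 CPM in the BM progenitor libraries, 407.0, 611.7 and 519.4 CPM under Runx2wt and 255.2, 495.7 and 761.6 CPM under Runx2ko. Every Runx2wt library exceeded every BM progenitor library, and so did Runx2ko replicates 2 and 3, but replicate 1 lay below all 3. The log2 fold changes against BM progenitor were 0.76 (SE 0.33; adjusted p = 0.152) for Runx2wt and 0.74 (SE 0.33; adjusted p = 0.155) for Runx2ko. Both passed once Runx2ko replicate 1 was left out, at 0.76 (SE 0.20; adjusted p = 0.0152) and 1.05 (SE 0.22; adjusted p = 0.00492). Runx2ko and Runx2wt differed by -0.02 (SE 0.33; adjusted p = 0.987).

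Lta4h, the hydrolase that makes leukotriene B4, was high in all libraries, at 407.6, 442.7 and 358.5 CPM in BM progenitor, 415.6, 309.0 and 135.8 CPM in Runx2wt and 143.9, 178.9 and 324.1 CPM in Runx2ko. The Runx2wt libraries spread about as widely as all 9, and the Runx2ko libraries lay below all of BM progenitor. The log2 fold changes were -0.49 (SE 0.40; adjusted p = 0.426) for Runx2wt and -0.90 (SE 0.40; adjusted p = 0.148) for Runx2ko against BM progenitor, and -0.41 (SE 0.40; adjusted p = 0.829) between them. Hpgd and Lta4h were the members whose Runx2ko and BM progenitor libraries did not overlap, where 38.4% of all genes tested did not. For Hpgd this rests on 0.647 CPM (2 counts) in Runx2ko replicate 1 against 0.637 CPM (3 counts) in BM progenitor replicate 3.

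Ltc4s, the leukotriene C4 synthase, was scarce, between 1.94 and 7.23 CPM, with both ends in Runx2wt. Its group means were 2.53 ± 0.402 CPM in BM progenitor, 4.19 ± 2.74 CPM in Runx2wt and 2.65 ± 0.805 CPM in Runx2ko. All groups overlapped, and none of its log2 fold changes, 0.72, -0.65 and 0.07 in the order given for Ptgs1, passed (adjusted p = 0.399, 0.789 and 0.95). In Runx2ko replicate 1, the library richest in mast cell RNA, Ltc4s stood at 1.94 CPM, the lowest of its group.

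Counted together, 5 of the 9 members other than Hpgd had no overlap between Runx2wt and BM progenitor: Alox5ap and Ptger2 were higher and Ptgs2, Alox5 and Ptger4 lower. Over all genes tested 49.3% had none, 24.8% as higher and 24.5% as lower, so the members' count lay near the background. The median log2 fold change of the 9 in this comparison was -0.09, against 0.01 over all genes. With Runx2ko replicate 1 left out, 3 of the 9 passed in Runx2wt against BM progenitor, Alox5ap and Ptger2 as higher (15.9% of all genes) and Alox5 as lower (12.1%), 28% of all genes passing in all. For Runx2ko against BM progenitor the 2 of 9 that passed were Alox5ap and Ptger2, both higher, where 28.5% of all genes passed, 15.9% as higher and 12.6% as lower.

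Between Runx2ko and Runx2wt 0 of the 9 members tested passed, by edgeR and by DESeq2, and 1, Alox5, had an unadjusted p under 0.05. Over all 11196 genes 0% passed by edgeR's test, with 7.91% at an unadjusted p under 0.05, while DESeq2 called 46 genes. The median log2 fold change of the 9 members was 0.31, against 0.01 over all genes. In the fit without Runx2ko replicate 1 none of the 9 passed, where 0.043% of all genes did. The standard errors of the 9 ran from 0.33 to 0.80 log2 units. The largest of their changes, 1.64 for Alox5 (SE 0.59), did not pass either (adjusted p = 0.579). With 3 libraries a group, changes well above these standard errors were thus not resolved.

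**Figure D2:**
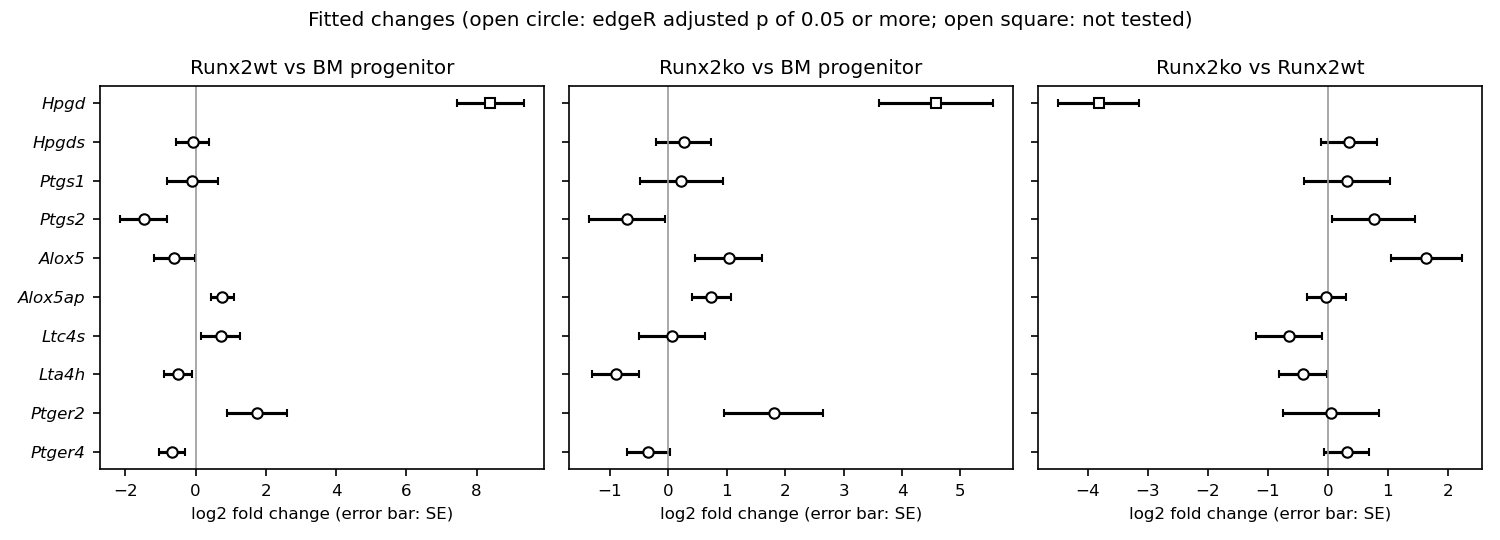
Fitted log2 fold changes with their standard errors for the 10 genes in the 3 comparisons (open circles did not pass an adjusted p under 0.05, and the open squares are the untested Hpgd values). Hpgd lies at 8.40 and 4.58 against BM progenitor and at -3.82 between Runx2ko and Runx2wt, and the other 9 genes lie between -1.47 and 1.81.

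The members Ptgs1, Alox5ap, Ltc4s, Ptger2 and Ptger4, overlap another counted gene in the GENCODE annotation, and the strand setting of the counting was not given in the sources used here, so reads of such neighbours may be shared. Hpgd, Hpgds, Ptgs2, Alox5 and Lta4h overlap no other gene in the table.

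The rest of the pathway was read from 7 lists with 61 further genes, of which 55 were in the table and 38 were tested. Against BM progenitor, 5 rose and 6 fell in Runx2wt, which is 28.9% of those tested beside 13.5% of all genes, and 5 rose and 4 fell in Runx2ko, 23.7% beside 17.2%. Between Runx2ko and Runx2wt 0 of 38 passed by edgeR and by DESeq2, and 6 had an unadjusted p under 0.05. There, 3 of the 38 lay above Runx2wt in every Runx2ko library and 2 below, beside 4.95% and 4.73% of all genes. The median log2 fold changes were 0.32, 0.30 and 0.01, beside 0.01, 0.07 and 0.01 over all genes. Single libraries moved these counts. The count for Runx2wt was 0 without any 1 BM progenitor library or without Runx2wt replicate 2, 3 and 4 without Runx2wt replicates 1 and 3, and 19 without Runx2ko replicate 1. For Runx2ko it was 1 without any 1 BM progenitor library, 6 without Runx2ko replicate 2 or 3 and 18 without Runx2ko replicate 1. The genes named next carry that limit. All 11 and all 9 calls remained without Runx2ko replicate 1. Gained were Pla2g4a, Pla2g12a, Mgll, Ptgis, Cotl1 and Cysltr1 as higher and Akr1b3 and Ptger3 as lower in Runx2wt, and Mgll, Ptges, Ptgis, Dpep2 and Cotl1 as higher and Pla2g16, Akr1c18, Ptger3 and Cyp4f18 as lower in Runx2ko.

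Among 12 tested genes of arachidonate release and recycling, 1 rose and 3 fell in Runx2wt, beside 8.28% and 5.23% of all genes. Pla2g15, the lysosomal phospholipase, went from 29.3 ± 3.92 CPM in BM progenitor to 69.3 ± 2.85 CPM in Runx2wt (log2 fold change 1.24, SE 0.28; adjusted p = 0.0222). Pla2g7, which hydrolyses platelet-activating factor, went from 27.0 ± 3.30 to 1.20 ± 1.63 CPM (-4.56, SE 1.03; adjusted p = 0.0231). Pla2g16, now called Plaat3, an acyltransferase and phospholipase, fell from 32.0 ± 11.2 to 9.17 ± 3.65 CPM (-1.79, SE 0.51; adjusted p = 0.0479). The other to fall was Mboat7, which puts arachidonate back into phosphatidylinositol, with a log2 fold change of -0.83 (adjusted p = 0.0164).

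In Runx2ko, 3 genes of that list rose and 1 fell against BM progenitor, beside 10% and 7.14% of all genes. Pla2g12a, a secreted phospholipase, stood at 60.4, 61.5 and 58.8 CPM in BM progenitor, 86.9, 93.7 and 86.0 CPM in Runx2wt and 176.9, 160.0 and 97.6 CPM in Runx2ko. The 3 groups did not overlap. It rose by 1.27 log2 units in Runx2ko against BM progenitor (SE 0.22; adjusted p = 0.0077), and its 0.71 above Runx2wt did not pass (SE 0.21; adjusted p = 0.579). Pla2g15 and Pla2g7 had nearly their Runx2wt changes, at 1.16 (adjusted p = 0.0225) and -4.97 (adjusted p = 0.0162), and Pla2g4a, the cytosolic phospholipase that frees arachidonate, rose by 0.90 (adjusted p = 0.0267).

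Of 9 tested prostanoid synthases, 1 rose and 1 fell in Runx2wt, beside 8.28% and 5.23% of all genes. Cbr1, a carbonyl reductase that can turn prostaglandin E2 into F2 alpha, had 5.47, 7.55 and 11.3 CPM in BM progenitor, 17.5, 19.1 and 17.0 CPM in Runx2wt and 10.0, 8.18 and 11.1 CPM in Runx2ko. Its Runx2wt libraries, like those of Hpgd, lay above all others. The difference from BM progenitor was 1.14 (SE 0.32; adjusted p = 0.0433), while the -0.87 (SE 0.32; adjusted p = 0.579) of Runx2ko against Runx2wt did not pass. Akr1c18, an aldo-keto reductase, fell in Runx2wt from 37.8 ± 6.52 to 0.185 ± 0.321 CPM (-7.63, SE 2.20; adjusted p = 0.049), on 2 counts in the 3 Runx2wt libraries. In Runx2ko it was at 65.7 CPM in replicate 1 and at 0.190 and 0.271 CPM in the others, with -0.81 against BM progenitor (adjusted p = 0.713) and -7.23 (adjusted p = 4.34e-05) without replicate 1. Ptges2, a prostaglandin E synthase, fell in Runx2ko against BM progenitor from 25.3 ± 3.23 to 14.2 ± 1.87 CPM (-0.84, SE 0.22; adjusted p = 0.0333).

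The list of prostaglandin breakdown and transport had 5 tested genes, and Ptgr2, the reductase that acts after Hpgd on the same lipids, rose in both transformed groups. It went from 26.2 ± 3.02 CPM in BM progenitor to 54.0 ± 2.22 CPM in Runx2wt (1.04, SE 0.22; adjusted p = 0.0184) and 54.2 ± 13.9 CPM in Runx2ko (1.04, SE 0.22; adjusted p = 0.0155). Unlike Hpgd, its Runx2ko and Runx2wt libraries overlapped. Slco2a1, the transporter that brings prostaglandins to the enzyme, had 0 counts in 8 of the 9 libraries and 2 counts in Runx2ko replicate 2, and was not tested. Cbr3, another carbonyl reductase, fell in Runx2ko by 2.93 log2 units (SE 0.64; adjusted p = 0.0177) at under 10 CPM, and is named after its value was seen.

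With 9 libraries no other prostanoid or leukotriene receptor passed in any comparison. Without Runx2ko replicate 1, Ptger3, a Gi-coupled prostaglandin E2 receptor, fell against BM progenitor in Runx2wt (-2.49, SE 0.66; adjusted p = 0.0167) and Runx2ko (-6.33, SE 1.14; adjusted p = 0.00246), and Cysltr1, a receptor for cysteinyl leukotrienes, rose in Runx2wt (1.57, SE 0.47; adjusted p = 0.0283). Both are named after their values were seen. Ptgir, the prostacyclin receptor, was the most highly counted of 3 tested prostanoid receptors, at group means of 19.8 CPM in BM progenitor, 15.7 CPM in Runx2wt and 28.5 CPM in Runx2ko, and its Runx2ko libraries lay above those of Runx2wt (0.85, SE 0.25; adjusted p = 0.579). Ltb4r1, the main leukotriene B4 receptor, averaged 43.0, 28.2 and 45.2 CPM with overlapping groups.

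Leukotriene conversion held 6 tested genes, of which 2 rose and 1 fell in Runx2wt, beside 8.28% and 5.23% of all genes. Dpep2, the dipeptidase that turns leukotriene D4 into E4, had 16.1, 9.17 and 13.6 CPM in BM progenitor, 60.2, 115.3 and 222.3 CPM in Runx2wt and 7.44, 86.8 and 77.5 CPM in Runx2ko. It rose by 3.34 log2 units in Runx2wt (SE 0.79; adjusted p = 0.027), and Runx2ko replicate 1 was its lowest library. Against BM progenitor Runx2ko had 2.14 (adjusted p = 0.0814), and 2.65 (adjusted p = 0.00155) without that replicate. Mgst2, a microsomal enzyme that can also make leukotriene C4, went from 76.4 ± 21.6 to 297 ± 102 CPM in Runx2wt (1.96, SE 0.56; adjusted p = 0.0483) and to 338 ± 234 CPM in Runx2ko (2.15, SE 0.57; adjusted p = 0.0319), with 85.1 CPM in Runx2ko replicate 1. In CPM both stood above Ltc4s in every library. Genes under 10 CPM that fell in Runx2wt, named after their values were seen, were Cyp4f18, which inactivates leukotriene B4 (-2.93, SE 0.67; adjusted p = 0.0233), and Alox15, the 12/15-lipoxygenase of eosinophils and macrophages (-3.95, SE 0.88; adjusted p = 0.0222). Alox15 fell in Runx2ko as well, by 2.94 (SE 0.80; adjusted p = 0.036).

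**Figure D3:**
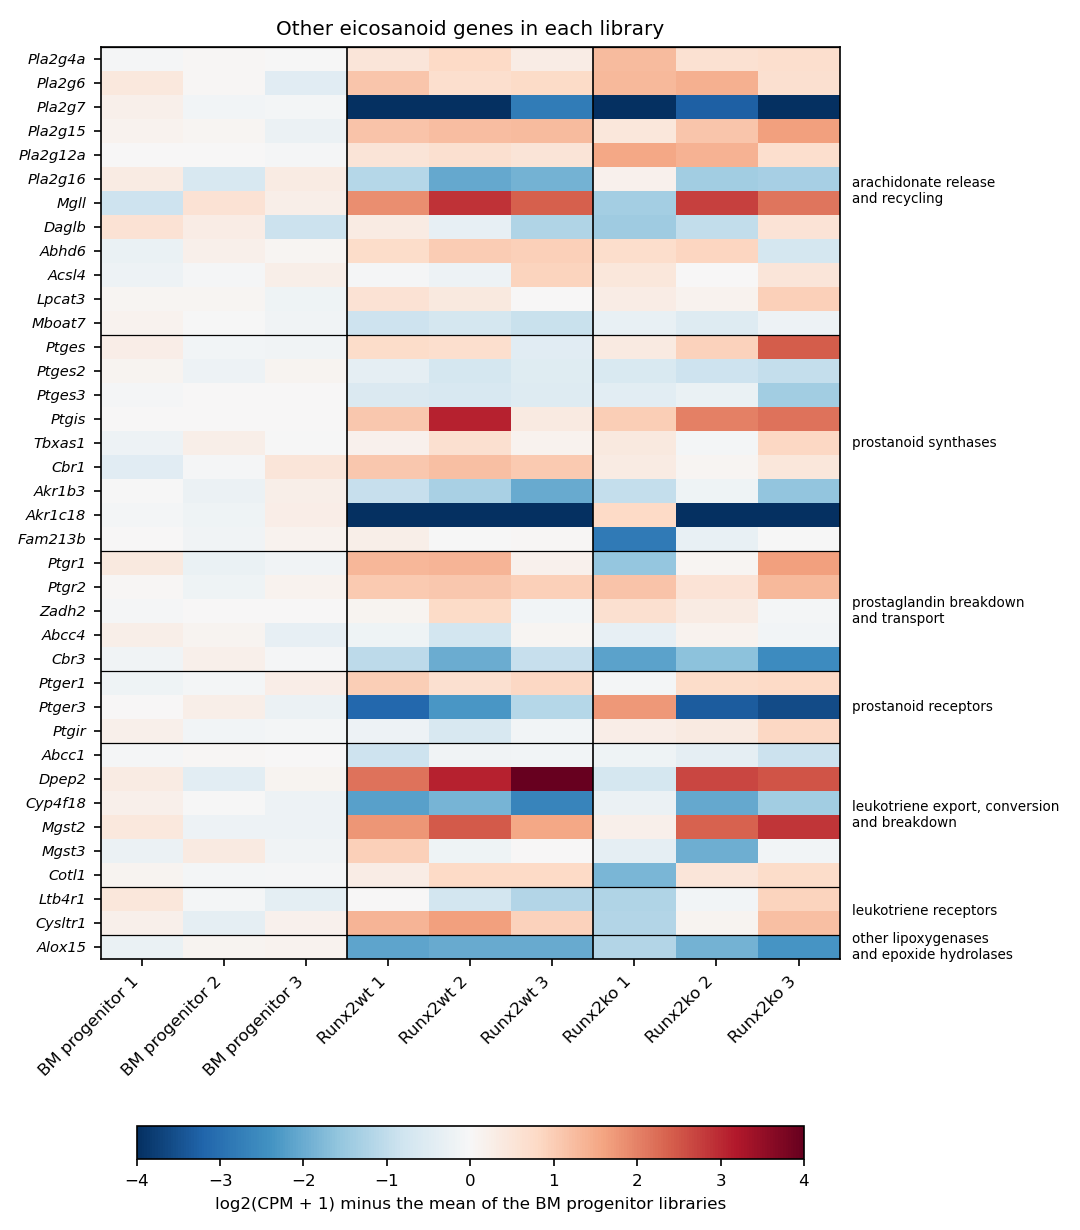
Log2(CPM + 1) of the 38 tested genes of the wider pathway in each library, minus the mean of the 3 BM progenitor libraries, with red higher and blue lower and the scale ending at -4 and 4. Pla2g7 and Alox15 are blue in all 6 transformed libraries, Dpep2 and Mgst2 are strongly red in all of them but Runx2ko replicate 1, and that library is the one transformed library where Akr1c18 and Ptger3 are red.

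The 5 genes below had the log2 CPM pattern most like that of Hpgd by Pearson's r over the 9 libraries, out of 11195 others: Hoxb13 (0.985), Wfdc18 (0.982), Cgnl1 (0.981), Vps52 (0.974) and Cd300ld (0.973). The points fall into the 3 groups, so r mostly reflects the order of the groups. Cgnl1, a junction protein gene, was closest to it in level, at 2.74, 1.62 and 2.12 CPM in BM progenitor, 107.6, 98.4 and 138.3 CPM in Runx2wt and 1.62, 36.2 and 38.8 CPM in Runx2ko. Hoxb13, a posterior homeobox gene, had 0 counts in all BM progenitor libraries and in Runx2ko replicate 1, and stood at 17.3, 15.2 and 11.1 CPM in Runx2wt and 4.38 and 2.98 CPM in Runx2ko replicates 2 and 3.

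Wfdc18 ran from 10.8 to 16.4 CPM in Runx2wt and from 0.323 to 5.52 CPM in Runx2ko, Vps52 from 51.7 to 56.5 and from 37.5 to 48.5 CPM, and Cd300ld from 44.9 to 46.9 and from 4.85 to 32.8 CPM. For each of the 5, every Runx2wt library lay above every Runx2ko library, beside 4.73% of all genes tested. Their choice by likeness to Hpgd favours that order, so it is no separate result. Without Runx2ko replicate 1, r stayed between 0.970 and 0.984, but 2 of the 5, Hoxb13 and Cgnl1, remained among the 5 most alike. Of the other members, Alox5ap had the highest r with Hpgd (0.742) and Ptgs2 the lowest (-0.778). Without Runx2ko replicate 1 Alox5ap was again highest (0.705), but the lowest was Alox5 (-0.911), with Ptgs2 at -0.748.

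**Figure D4:**
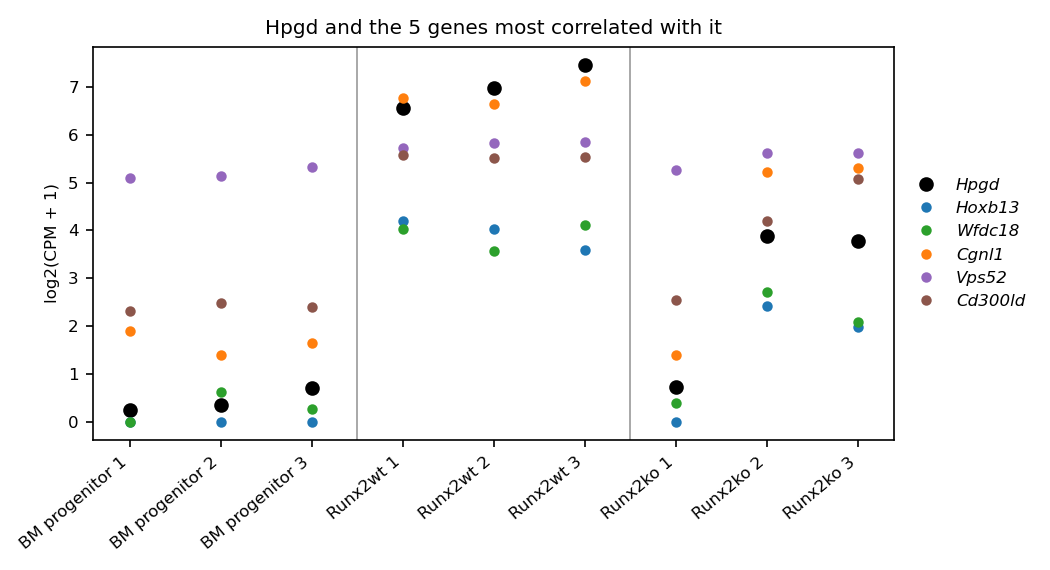
Log2(CPM + 1) of Hpgd and the 5 genes most correlated with it in each library, with grey lines between groups. All 6 genes are highest in the 3 Runx2wt libraries, and in Runx2ko replicate 1 each lies below its level in Runx2ko replicates 2 and 3.

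Markers of cells known for these lipids were counted beside the members. Of 16 mast cell and basophil markers none was at 0 in the Runx2ko libraries, 1 to 4 were at 0 in Runx2wt and 3 or 4 in BM progenitor. The sums, in replicate order, were 1480, 1300 and 1410 CPM in BM progenitor, 201, 309 and 421 CPM in Runx2wt and 6440, 126 and 596 CPM in Runx2ko. Cpa3, Cyp11a1 and Slc18a2 led Runx2ko replicate 1, with 2001.9, 1433.2 and 769.5 CPM. All 14 tested markers had a positive log2 fold change in Runx2ko against Runx2wt, and 0 passed. Of them 1 lay above Runx2wt in every Runx2ko library, beside 4.95% of all genes. All 8 tested eosinophil and all 5 tested megakaryocyte and platelet markers were positive as well. The 9 megakaryocyte and platelet markers summed to 840 CPM in Runx2ko replicate 1, of which Itga2b held 688.3 CPM. They summed to 32.6 to 80.1 CPM in the other transformed libraries and 101 to 109 CPM in BM progenitor. With Runx2ko replicate 1 left out, Cyp11a1 (-0.72) and Gata2 (-0.84) were negative and the other tested mast cell and basophil markers stayed positive. Of the megakaryocyte and platelet markers, Itga2b (-0.20), Ppbp (-2.75) and Vwf (-1.15) were then negative, and Pf4 (0.27) and Itgb3 (0.60) stayed positive. The eosinophil markers Epx and Ccr3 had 0 counts in the libraries left to compare, and the other tested ones stayed positive.

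Of the members, Alox5 (277.5 CPM) and Hpgds (14.6 CPM) were at their highest of the 9 libraries in Runx2ko replicate 1. Ptger2 (0.970 CPM), Ptgs1 (10.0 CPM) and Alox5ap (255.2 CPM) were at their lowest there, and Ltc4s was at 1.94 CPM. Ptger3, from the wider lists, was at its highest (39.1 CPM). Ptger3 was at 9.13 to 13.2 CPM in BM progenitor, 0.376 to 4.45 CPM in Runx2wt and 0.190 and 0 CPM in Runx2ko replicates 2 and 3. Monocyte and macrophage markers, 12 in number with 0 to 3 at 0 in a library, summed to 125 CPM in Runx2ko replicate 1, against 459 to 954 CPM in the other transformed libraries and 416 to 518 CPM in BM progenitor. The part of these cells in the values of replicate 1 was not tested.

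Eosinophil markers summed to between 1380 and 1840 CPM in BM progenitor, 2.49 and 4.52 CPM in Runx2wt and 8.75 and 18.1 CPM in Runx2ko, and neutrophil markers to between 10400 and 14300, 823 and 3240, and 474 and 8240 CPM. BM progenitor, as labelled, thus held much granulocyte RNA, and its Kit stood at 68.6 to 74.7 CPM and Cd34 at 76.9 to 83.1 CPM. The 6 progenitor markers summed to between 221 and 223 CPM in BM progenitor, 775 and 959 CPM in Runx2wt and 551 and 678 CPM in Runx2ko. In Runx2wt against BM progenitor Hoxa9, Hoxa10 and Meis1 rose, Cd34 and Flt3 fell and Kit did not pass. The 9 T cell markers summed to 7.3 to 12.9 CPM in BM progenitor, 14.3 to 44.1 CPM in Runx2wt and 63.1 to 158 CPM in Runx2ko, most of the last from Thy1 (84.4 CPM on average). Thy1 rose in both transformed groups and Lck in Runx2ko against BM progenitor, while Cd3e stayed at or below 0.381 CPM in every library. The part of these cells in the differences from BM progenitor was not tested.

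**Figure D5:**
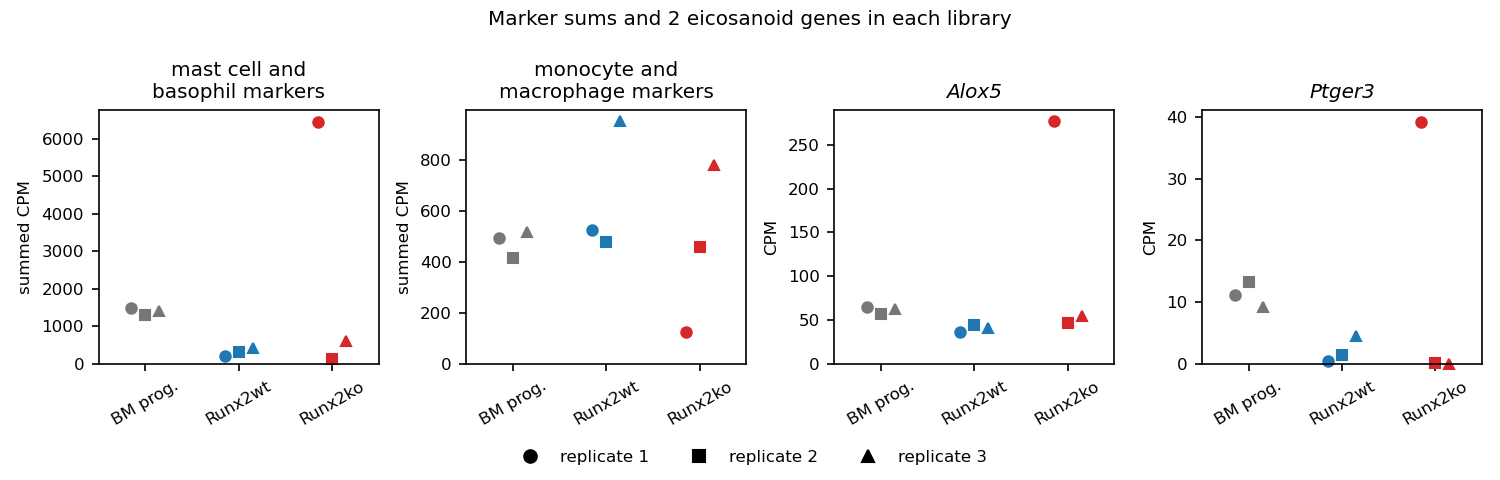
Summed CPM of 16 mast cell and basophil markers and of 12 monocyte and macrophage markers beside the CPM of Alox5 and Ptger3 in each library, on linear axes (circles, squares and triangles are replicates 1, 2 and 3). Runx2ko replicate 1 is the highest library for mast cell markers (6440), Alox5 (277.5) and Ptger3 (39.1) and the lowest for monocyte and macrophage markers (125).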

How the data were processed

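QuantSeq 3′ tag libraries of 9 samples were analysed from 2 tables. Whole-number counts for each Ensembl gene, deposited by the authors, were the main data. The authors also deposited normalized values on another scale, equal to those counts divided by 1 constant per library. The build was GRCm38 and the tools STAR, DESeq2 and FastQC, per the submitters' processing notes. Tool versions, the counting program, its strand setting and the annotation were not given in the sources used here. Symbols from GENCODE M21 matched 21042 of 21159 identifiers, of which 1188 genes had no count. Libraries of a group differed by more than sampling noise (smallest chi-square 4.25 per gene), which does not by itself show separate cultures. Each was treated as 1 sample because the labels call the libraries independent biological replicates.

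The counts of all 9 libraries were fitted together in edgeR 4.0.16 (R 4.3.3), with TMM factors, filterByExpr and the quasi-likelihood F-test, without a replicate block. P-values were adjusted by Benjamini-Hochberg over 11196 genes, and standard errors were derived from the F statistic. The fit was tested on simulated counts. Alternatives were DESeq2 1.42.0, limma-voom (limma 3.58.1), RLE size factors, no filter, only the compared libraries, a replicate block, the authors' normalized values as log2 with a pseudocount of 1, and leaving out each library. Correlations used log2 CPM with a prior count of 2.

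Replicate numbers were taken from the labels. Deviations from the group means in same-numbered libraries correlated at -0.066 to 0.072, so the numbers were not used to pair. Members, lists and tests were chosen with earlier results of these data known. Hpgd was fitted with the rest, but since its Runx2wt and Runx2ko values chose it, no p-value is given for it. Named by rule were all members, for each wider list up to 2 passing genes per direction with at least 10 CPM in a group (or else the most highly counted member), the 5 genes most correlated with Hpgd, and Runx2. Others are marked as chosen after their values were seen, or named to complete a count. Exact intervals, also those of ratios, take in counting error only and leave out the spread between libraries. The labels state no molecular identifiers for the tags.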

Additional observations from a re-analysis of the deposited data

How the results depend on the processing

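The log2 fold change of Hpgd, a description, ran over the alternatives from 7.80 to 9.02 in Runx2wt against BM progenitor, from -4.55 to -3.31 in Runx2ko against Runx2wt and from 3.25 (the authors' normalized values) to 5.21 in Runx2ko against BM progenitor. In the last comparison it fell below the filter where only the compared libraries were fitted.

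Genes passing in Runx2wt against BM progenitor were 1513 in the main analysis, 2390 by DESeq2, 3679 with only the compared libraries and 209 to 3256 when 1 library was left out. Of the 9 members tested 0 passed there, 3 with only the compared libraries and 0 to 3 with 1 library left out. Wider eicosanoid genes were 11, then 21 and 0 to 19. In Runx2ko against BM progenitor 1924 genes passed, 1262 with only the compared libraries and 405 to 3311 with 1 left out. Of the 9 members 0 passed there, and 0 to 2 with 1 left out. Wider genes were 9, then 5 with only the compared libraries and 1 to 18. In Runx2ko against Runx2wt 0 genes passed, 46 by DESeq2 and 0 to 5 with 1 left out. Limma-voom moved the split of higher and lower calls from 927 and 586 to 767 and 706 in Runx2wt, and from 1125 and 799 to 890 and 989 in Runx2ko, against BM progenitor.

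The replicate block, for numbers that the check did not show to pair the libraries, gave 922 and 1120 genes in Runx2wt and Runx2ko against BM progenitor and 8 and 4 wider genes. Under the block 0 of the 9 members passed in any comparison, as without it.

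Signs of values that did not pass turned in some settings. In Runx2ko against Runx2wt they were Ptgs1 (-0.22 with the authors' values, -0.051 with limma-voom, -0.086 to 0.84 with 1 library left out), Ptger2 (-0.13 with the block, -0.57 with the authors' values, -0.30 with limma-voom, -0.33 to 0.71 with 1 left out) and Alox5ap (0.002 with only the compared libraries, -0.45 to 0.29 with 1 left out). With 1 left out, Hpgds ran from -0.16 to 0.72 and Ptgs2 from -0.072 to 1.20. In Runx2ko against BM progenitor they were Ptgs1 (-0.28 with the block, -0.48 with the authors' values, -0.34 with limma-voom, -0.20 to 0.75 with 1 left out), Hpgds (-0.019 with limma-voom, -0.25 to 0.61), Alox5 (-0.29 to 1.41) and Ltc4s (-0.18 to 0.23). In Runx2wt against BM progenitor, with 1 left out, they were Hpgds (-0.31 to 0.077) and Ptgs1 (-0.49 to 0.25). The cause was not tested.

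With 3 libraries a group, standard errors of members ran from 0.33 to 0.98 log2 units. Levels of Ptgs2, Ltc4s and, in BM progenitor, Hpgd rest on few counts.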
